A study of Mus musculus with 24 samples.

Results

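Kidneys of mice labelled Glis3 knockout (KO) and wild type (WT) were compared at postnatal day 14 (PND14), the middle of the 3 ages in the series. The members are the 10 PND14 libraries, 5 labelled KO and 5 labelled WT, chosen by the genotype and age in their labels, of 23 samples with counts and 24 described. All were made from total RNA of kidney, with no treatment given. The labels call the mice Glis3 KO and the design text calls them null. How the allele was made, which exons it removes, the strain, the sex and the number of animals per library are not given in the sources used here, so p-values measure the spread between these libraries.

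GLIS3 is a Krüppel-like zinc finger transcription factor that also localises to the primary cilium. Loss of GLIS3 in mice and people is known for neonatal diabetes, hypothyroidism and cystic kidneys. At PND14 the mouse kidney has finished forming nephrons, and the tubule segments are acquiring their transporters and their oxidative metabolism.

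Kidney identity was clear in every library. Levels are in CPM (counts per 1000000 counts of the library, after scaling by TMM, the trimmed mean of M-values), which is not corrected for gene length. Umod, Slc34a1, Nphs1 and Aqp2, which mark thick ascending limb, proximal tubule, podocytes and principal cells, had at least 18.5 CPM in each of the 10 libraries. Total counts per library were 58922784 to 76403624 in KO and 58910644 to 84684054 in WT, so single libraries resolved genes well under 1 CPM. Several KO and WT libraries stood apart and are described beside the results that they touch or among the flagged results near the end.

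The targeted gene, Glis3, was examined first (chromosome 19, 28258851 to 28680077, minus strand, build mm10). It had 87.5, 90.8, 74.8, 61.4 and 66.0 CPM in WT replicates 1 to 5 and 89.3, 84.8, 62.7, 78.7 and 97.1 CPM in KO replicates 1 to 5. The groups overlapped and the difference was within their spread (log2 fold change 0.12, SE 0.12, edgeR adjusted p = 0.495). The gene-level counts thus do not check the label, and they do not separate exons. All directions below are those of libraries labelled KO. A gene is called where the edgeR adjusted p was under 0.05, and a change is KO against WT on the log2 scale. The relatives of Glis3 were lower. Glis2, whose loss causes a nephronophthisis with fibrosis, had 246, 242, 264, 201 and 195 CPM in WT and 128, 126, 168, 145 and 135 CPM in KO, with no overlap. It fell by 0.71 on the log2 scale (SE 0.099, adjusted p = 0.000106). Glis1 fell from 6.59 ± 0.528 to 4.38 ± 0.519 CPM (SD, n = 5 each, adjusted p = 0.000737), also without overlap.

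**Figure D1:**
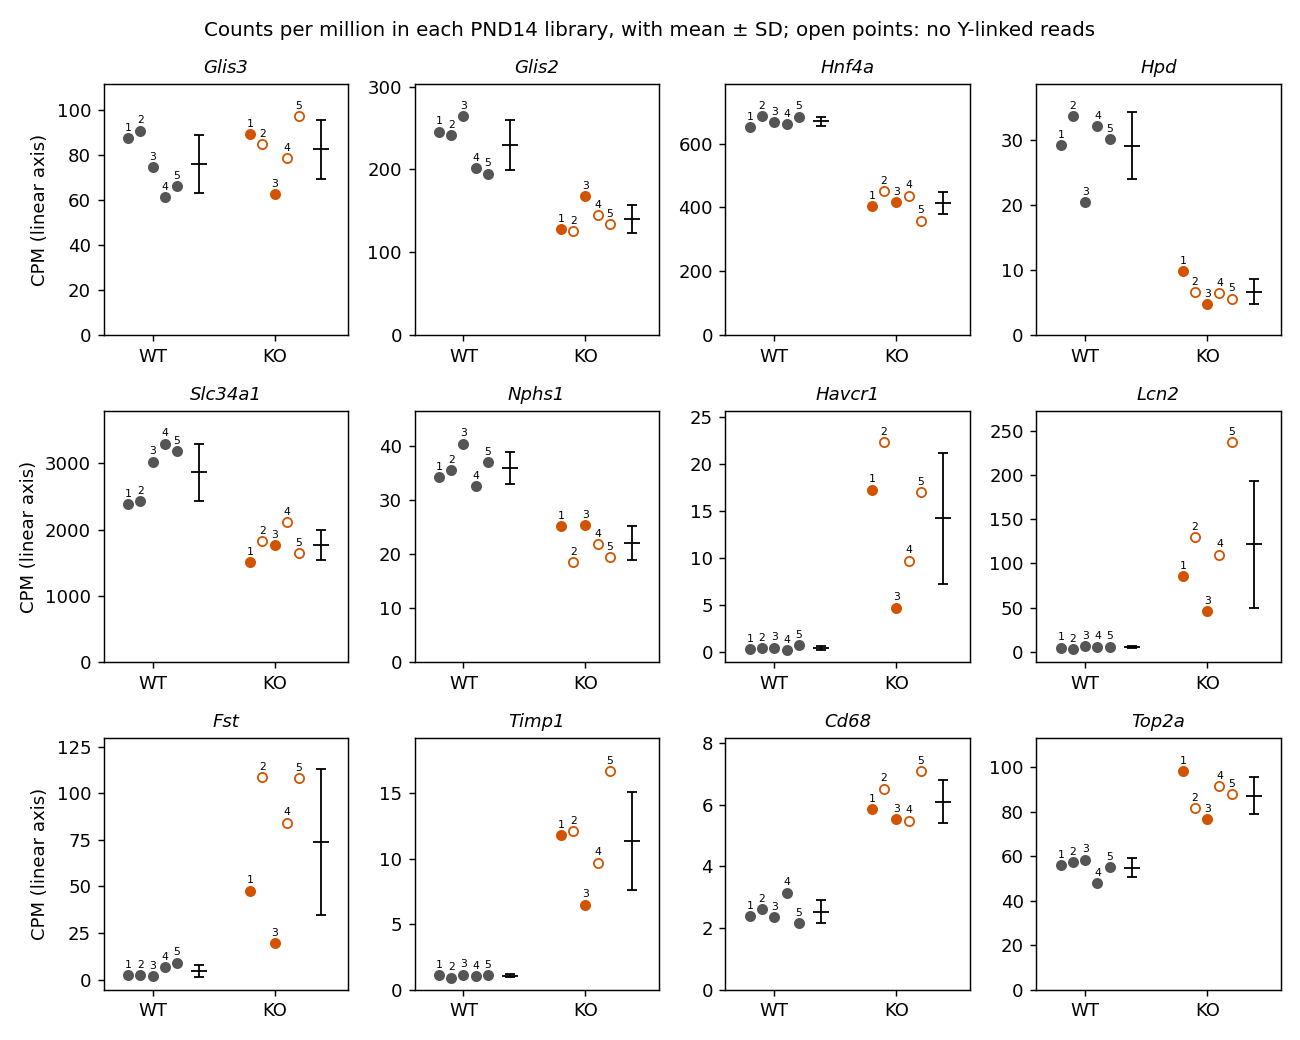
CPM (linear axis) of 12 genes in each PND14 library, numbered by replicate, with mean ± SD beside the points and open points for libraries without Y-linked reads. Glis3 overlaps between the groups, Glis2, Hnf4a, Hpd, Slc34a1 and Nphs1 are lower in every library labelled KO, and the last 6 genes are higher in every one, with the widest KO spread in Lcn2, from 46.4 to 237 CPM.

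KO replicate 2 held transcripts that are known from the adrenal gland, which lies on top of the kidney. Cyp11a1, the first enzyme of steroid synthesis, had 0.16, 4.93, 0.15, 0.212 and 0.214 CPM in KO replicates 1 to 5 and 0.0344, 0.217, 0.122, 0.0745 and 0.128 CPM in WT replicates 1 to 5. Cyp11b1, the 11-beta-hydroxylase of glucocorticoid synthesis, had 0 CPM in all 5 WT libraries and 0, 4.45, 0.0125, 0.0653 and 0.188 CPM in the KO libraries. Replicate 2 alone was high in both genes. Hsd3b1 reached 11.8 CPM there against at most 0.067 CPM elsewhere, Star 19.4 CPM against 2.79 to 4.12 CPM, and the aldosterone synthase gene Cyp11b2 0.601 CPM against 0. The 10 adrenal cortex markers summed to 118 CPM in KO replicate 2, to 62.2 to 68.2 CPM in the other KO libraries and to 64.2 to 70.3 CPM in WT, where Scarb1, which kidney also expresses, made up most of the sum. Among medulla markers, Chgb had 1.27 CPM in KO replicate 2 and at most 0.0642 CPM elsewhere, while Th, Dbh and Pnmt, the enzymes of catecholamine synthesis, had at most 0.227 CPM in any library. Ddc and Slc18a1 of the medulla list, which kidney also expresses, were called lower in KO (-0.55 and -0.70). Cyp11a1 was called higher with all libraries (log2 fold change 3.19, SE 1.05, edgeR adjusted p = 0.0287), and without KO replicate 2 it was not (0.60, adjusted p = 0.313). Nor was it called without WT replicate 1, 3, 4 or 5, where the change stayed at 2.97 to 3.21 (adjusted p = 0.0540 to 0.0611).

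Sex was unevenly spread over the groups. Summed raw CPM of 4 Y-linked genes was 155 to 221 in all 5 WT libraries and in KO replicates 1 and 3, and at most 0.798 in KO replicates 2, 4 and 5. The log2 level of Y-linked reads was used as a covariate. Where it lowered the count of a kidney cell or pathway list by over 1.5 times, that count is given too. Sex and genotype cannot be told apart in full, since WT holds no library without Y-linked reads. The covariate therefore rests almost only on differences among the KO libraries. A call lost with it does not by itself show an effect of sex.

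**Figure D2:**
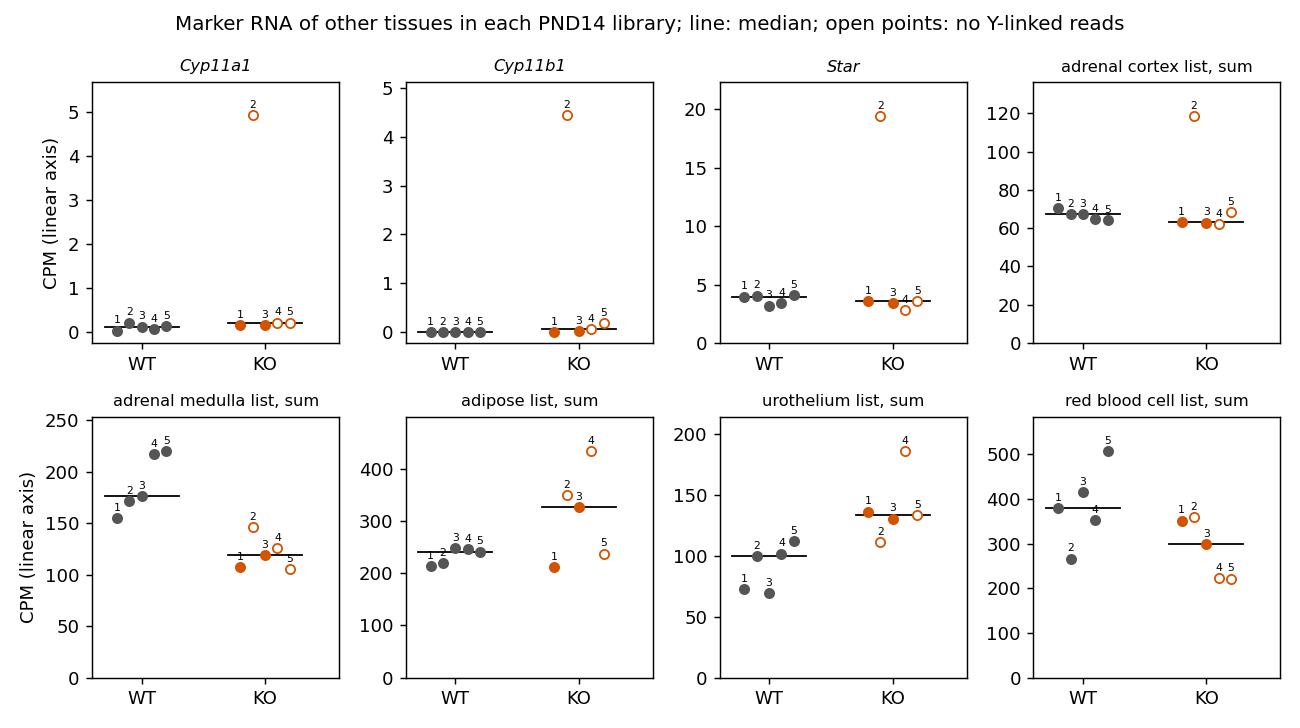
CPM (linear axis) of 3 adrenal genes and summed CPM of 5 marker lists in each PND14 library, numbered by replicate, with a line at the group median and open points for libraries without Y-linked reads. KO replicate 2 is alone in Cyp11a1, Cyp11b1 and Star, while the adipose and urothelium sums reach their highest values, 434.2 and 185.8 CPM, in KO replicate 4.

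Among the other tissue lists, adipose and urothelium had most of their markers called higher in KO. Of 8 adipose markers 6 were called higher in KO (median log2 fold change 2.06), against 19.1% called higher over all genes tested. With the Y-linked covariate 2 were called and the median was 1.35. Adipoq, the fat cell hormone adiponectin, had 0.0515, 1.08, 3.83, 1.51 and 2.54 CPM in WT and 2.21, 9.998, 6.72, 10.5 and 6.35 CPM in KO. The values overlapped, with WT replicate 1 lowest and KO replicates 2 and 4 highest. Summed over the list, where Fabp4 dominates, adipose markers were 214 to 249 CPM in WT and 211 to 434 CPM in KO. Of 8 urothelium markers 7 were called higher (median 0.67), 0 of them without overlap between groups, and 1 was called with the covariate (median 0.59). Their sums were 69.0 to 112 CPM in WT and 111 to 186 CPM in KO, and without KO replicate 4, WT replicate 1 or WT replicate 3 the count was 4. At most 2 genes were called per direction in muscle (4 tested), liver (6), pancreas (1), ovary (4), testis (5) and red blood cells (8). With so few tested, these counts do not show that the tissues were unchanged. Liver gave 2 higher and 1 lower, against 19.1% and 17.2% over all genes. Of the red blood cell genes, 4 were lower without WT replicate 2. WT replicate 3 was apart in the pancreas sum, at 6.76 CPM. Red blood cell markers summed to 267 to 507 CPM in WT and 222 to 360 CPM in KO. How much these tissues contributed to other results was not tested, apart from leaving out KO replicate 2.

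In all, 6428 of 17702 genes tested (36.3%) were called at an edgeR adjusted p under 0.05, 3376 higher (19.1%) and 3052 lower (17.2%) in the libraries labelled KO. Before adjustment, 8146 genes had a p under 0.05. The median log2 fold change was -0.0047 over all genes tested, and the median size of a called change was 0.48 on the log2 scale. All 5 KO values exceeded all 5 WT values for 13.1% of the genes, and for 11.2% they were all below them. Counts of list members called or without overlap are set against these shares. Without KO replicate 2, 5745 genes were called and 5558 of the 6428 (86.5%) kept their call and direction, so most calls did not need the library with adrenal RNA. With the Y-linked covariate 4675 were called, 4152 of the 6428 (64.6%) in the same direction, and 3838 when only the 7 libraries that had Y-linked reads were used. No gene was called in the opposite direction under any of these.

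The KO libraries differed in the size of the response. KO replicate 5 was the most extreme KO library in 48% of genes called higher and 41.5% of genes called lower, and KO replicate 2 in 12.6% and 10.7%. The pair of KO libraries with Y-linked reads lay below the other 3 in 25.5% of genes called higher, against 15.6% of all genes tested. In genes called lower they lay above the other 3 in 17.1%, against 13.9% of all genes tested.

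The proximal tubule reabsorbs most of the filtered load, and its genes were lower in KO. Of 14 markers of its early segments (S1 and S2) 11 were called lower and 0 higher, against 17.2% called lower over all genes, with a median log2 fold change of -0.56. Slc34a1, the main phosphate cotransporter, had 2386, 2435, 3027, 3299 and 3189.8 CPM in WT and 1516, 1833, 1765, 2112 and 1645 CPM in KO. All 5 KO libraries were below all WT libraries, a fall by 0.69 (SE 0.11, adjusted p = 0.000341). The dicarboxylate transporter gene Slc13a3 (-0.77), the glucose transporter gene Slc5a2 (-0.73) and the endocytic receptor gene Lrp2 (-0.53) were lower without overlap. Slc6a19, the neutral amino acid transporter, had the lowest log2 fold change at -0.99, but its groups overlapped, with KO replicate 1 at 268 CPM against 106 to 152 CPM in the other KO libraries. It lost its call with the Y-linked covariate (-0.79, adjusted p = 0.0818) and in the libraries with Y-linked reads alone (adjusted p = 0.142). In bulk RNA, fewer cells of a type and less RNA per cell cannot be told apart. With the Y-linked covariate 7 of the 14 were called lower, and the median was -0.67.

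Markers listed here as late proximal (S3) were mixed, with 6 of 10 called lower and 1 higher (median -0.36). The lower ones included both subunits of the cystine transporter. Slc7a9 had 142, 138, 115, 132 and 134 CPM in WT and 74.0, 82.3, 73.1, 77.5 and 68.5 CPM in KO, a fall by 0.82 (SE 0.07, adjusted p = 2.65e-06). Its partner Slc3a1 fell from 584 ± 33.6 to 383 ± 30.1 CPM. Neither gene overlapped between groups. Cyp7b1, an oxysterol hydroxylase, was the marker called higher, at 0.52.

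Transcription factors of the proximal programme were among the lower genes. Hnf4a, a nuclear receptor required for proximal tubule maturation, lies on chromosome 2, 163547187 to 163572910, plus strand. It had 651, 685, 666, 662 and 684 CPM in WT and 405, 451, 416, 437 and 359 CPM in KO. The WT libraries lay within a narrow band and all KO libraries lay well below it, with replicate 5 lowest (fall by 0.70, SE 0.067, adjusted p = 6.85e-06). Ppara (-0.57), Esrra (-0.40) and the mitochondrial coactivator gene Ppargc1a (-0.30) were called lower, as were Irx1, Irx2 and Maf. Tfcp2l1, a factor of the collecting duct, and Emx2 were called higher at 0.37 and 0.25. In all, 8 of 15 factors were lower and 2 higher, and in the libraries with Y-linked reads alone 7 and 0 (adjusted p = 0.0904 for Tfcp2l1 and 0.0629 for Emx2).

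Promoters were searched for the sequence that HNF4A prefers, CAAAGTCCA, on both strands of the RefSeq window from 250 bases before to 50 bases after the annotated start (GRCm38.p6). A window was given for 11709 of the genes tested. The 9 letters occurred in 0.529% of these genes, 0.573% of those called higher and 0.875% of those called lower, and in 0.475% of all windows. It occurred in 0 of the 117 genes called lower at least 2-fold and in 0.721% of those called higher at least 2-fold. Of listed genes with a window, 3 of 16 in amino acid catabolism held it and, among late proximal markers, Slc3a1 alone of 6. The match was in no gene of any other list, including those lower in KO, such as 0 of 11 early proximal, 0 of 12 fatty acid oxidation, 0 of 12 oxidative phosphorylation and 0 of 10 thick ascending limb genes. These 4 were called lower, as were 16 of the 18 catabolism genes, and no test of the match against direction was made. Their sequences are shown to place the match, which lies within 100 bases of the start, and a match is a description, not a binding site. The stretches run 5′ to 3′ on the gene's strand, with the match or its reverse complement in capitals.
Slc3a1, chr17:85028262-85028361, plus strand: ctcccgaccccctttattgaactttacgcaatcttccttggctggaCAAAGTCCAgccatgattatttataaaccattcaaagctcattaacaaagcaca
Agxt2, chr15:10358466-10358565, plus strand: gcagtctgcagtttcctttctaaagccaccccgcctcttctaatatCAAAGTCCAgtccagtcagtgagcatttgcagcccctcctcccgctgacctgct
Pipox, chr11:77893823-77893922, minus strand: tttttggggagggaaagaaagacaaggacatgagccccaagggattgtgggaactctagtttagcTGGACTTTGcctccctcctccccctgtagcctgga
Aadat, chr8:60506006-60506105, plus strand: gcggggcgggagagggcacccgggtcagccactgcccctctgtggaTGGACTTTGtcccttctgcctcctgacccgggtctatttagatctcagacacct
Relative to the start, the match lies at -39 to -31 in Slc3a1, at -21 to -13 in Agxt2 (from the more upstream of its annotated starts), at 15 to 23 in Pipox and at -72 to -64 in Aadat.

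The core of the GLIS binding site, TGGGGGGT, was searched in the same way. It occurred in 1.83% of tested genes with a window, 2.13% of those called higher and 1.9% of those called lower, and in 1.52% of all windows. Of genes called at least 2-fold it occurred in 2.7% of those higher and 2.56% (3 of 117) of those lower, and these shares were not tested. Among kidney cell markers it was found in Elf5, a principal cell factor that was called higher (1.14), and in Wnk4, a distal tubule kinase gene that was called lower (-0.32). These are the stretches in which the marker lists met the factor's own motif, at -96 to -89 and -84 to -77 from the start.
Elf5, chr2:103423926-103424025, plus strand: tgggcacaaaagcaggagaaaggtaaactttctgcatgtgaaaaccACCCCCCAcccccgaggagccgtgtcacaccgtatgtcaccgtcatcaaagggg
Wnk4, chr11:101260437-101260536, plus strand: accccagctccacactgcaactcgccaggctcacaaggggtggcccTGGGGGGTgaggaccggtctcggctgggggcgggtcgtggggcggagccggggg
In the pathway lists the match also occurred in Bbc3 (0.70), Cxcl1 (1.81) and Pkm (0.27), all called higher, and in Irf7, which was not called (0.18).

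The proximal tubule also breaks down amino acids, makes glucose and burns fatty acids, and these genes fell together. Of 18 amino acid catabolism genes 16 were called lower and 0 higher (median -0.60). Hpd, the tyrosine breakdown enzyme 4-hydroxyphenylpyruvate dioxygenase (chromosome 5, 123171807 to 123182727, minus strand), had 29.3, 33.7, 20.5, 32.2 and 30.2 CPM in WT and 9.85, 6.70, 4.85, 6.48 and 5.67 CPM in KO. It was 4.34-fold lower in KO without overlap, the largest fall among such genes of at least 1 mean CPM, predicted gene models aside (log2 fold change -2.12, SE 0.18, adjusted p = 2.43e-06). The next steps of the same pathway, Hgd (-0.70) and Fah (-0.63), were lower too. Prodh2, the hydroxyproline dehydrogenase, fell from 112 ± 10.6 to 56.1 ± 9.30 CPM. The exceptions were Amt at -0.03 and Gldc at -0.60 (adjusted p = 0.822 and 0.0973), both of the glycine cleavage system.

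All 7 genes of gluconeogenesis and fructose use were called lower (median -0.67). Pcx, pyruvate carboxylase, had 695, 650.5, 715, 666 and 666 CPM in WT and 365, 389, 395, 442 and 372 CPM in KO. It fell by 0.79 without overlap (SE 0.065, adjusted p = 2.29e-06). The fructokinase gene Khk (-0.74), glucose-6-phosphatase G6pc (-0.73) and Pck1 (-0.67) went the same way. Glycolysis was mixed, with 5 of 13 genes called higher and 0 lower, and 2 higher with the covariate or 1 in the libraries with Y-linked reads alone. Hk2, the hexokinase of proliferating and insulin-responsive cells, rose 5.56-fold, from 0.79, 1.33, 1.73, 1.19 and 0.834 CPM in WT to 6.51, 5.53, 5.68, 6.95 and 8.31 CPM in KO, with all KO libraries above all WT libraries (adjusted p = 2.15e-06). Gapdh was not called (-0.16, adjusted p = 0.102).

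Genes of oxidative metabolism were lower by small amounts. All 19 genes of oxidative phosphorylation were called lower, with log2 fold changes from -0.46 to -0.23 (median -0.34). Atp5b, the catalytic subunit of ATP synthase, had 3216, 3170.0, 3305, 3459.9 and 3488 CPM in WT and 2405, 2854, 2698, 2799 and 2403 CPM in KO. The groups did not overlap, and KO replicates 1 and 5 were lowest. In 16 of the 19 genes no KO library reached a WT library, against 11.2% over all genes. Of 16 fatty acid oxidation genes 15 were called lower (range -0.80 to -0.02, median -0.38), led by the peroxisomal thiolase gene Acaa1b (-0.80) and the fatty acid transporter gene Slc27a2, which fell from 1456 ± 204 to 905 ± 117 CPM. Acadl was the exception (-0.02, adjusted p = 0.865). With the Y-linked covariate 16 oxidative phosphorylation and 13 fatty acid oxidation genes were called lower, with medians of -0.36 and -0.495.

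**Figure D3:**
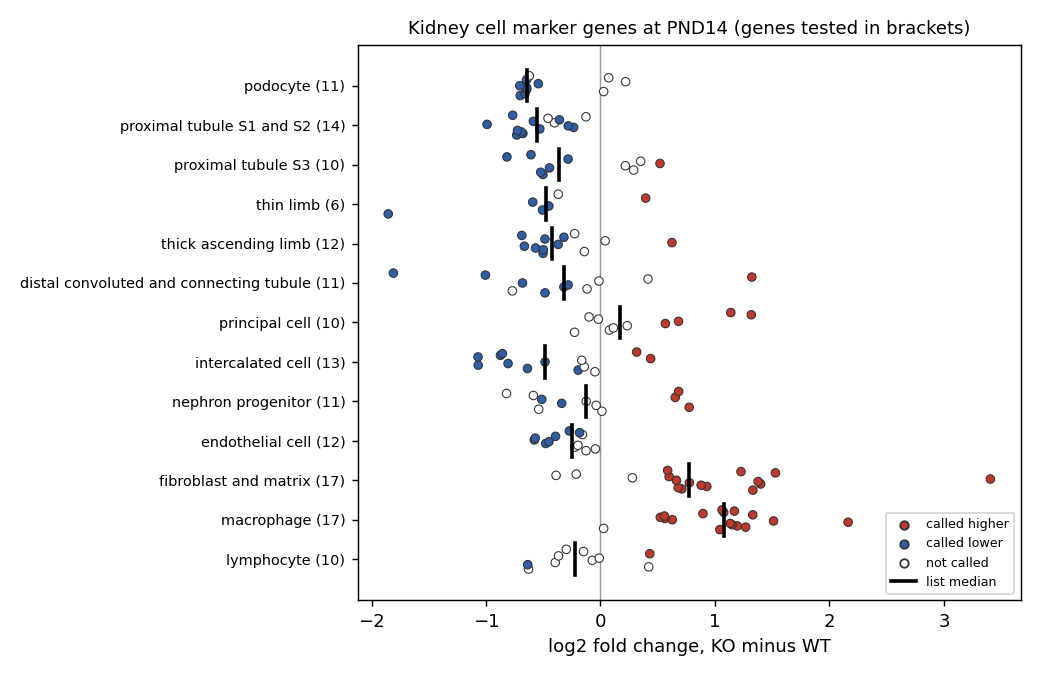
Log2 fold change, KO minus WT, of each tested marker gene (points) of 13 kidney cell lists, with the list median as a bar. Podocyte, tubule and endothelial markers lie mostly below 0, and fibroblast and macrophage markers lie mostly above it, with medians of 0.78 and 1.08.

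In the glomerulus, 7 of 11 podocyte markers were called lower and 0 higher (median -0.65). Nphs1, which encodes the slit diaphragm protein nephrin, had 34.2, 35.5, 40.4, 32.5 and 37.0 CPM in WT and 25.2, 18.5, 25.4, 21.9 and 19.4 CPM in KO, a fall by 0.70 without overlap (SE 0.096, adjusted p = 9.26e-05). Podxl (podocalyxin, -0.65) was lower as well, and Synpo was not called (0.03). In Nphs1 and Podxl the pair of KO libraries with Y-linked reads were the highest of the 5, and with the covariate 4 of 11 podocyte markers were called and the median was -0.35 (4 and -0.32 in the libraries with Y-linked reads alone). Endothelial markers were called lower in 7 of 12 (median -0.25), with Emcn (-0.58) and Plvap (-0.39) lower and the general markers Pecam1 (-0.13) and Cdh5 (-0.04) not called. Emcn kept its call in all 18 settings, with a log2 fold change of -0.35 where its fall was smallest.

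Beyond the proximal tubule, markers of the loop and of the distal convoluted and connecting tubule were more often called lower than higher. Slc14a2, the urea transporter of inner medulla and thin limb that serves urine concentration, had 209.6, 186, 211, 174 and 170.5 CPM in WT and 55.2, 43.7, 63.6, 51.2 and 49.4 CPM in KO. All KO libraries were far below all WT libraries, 3.62-fold on average (log2 fold change -1.85, SE 0.099, adjusted p = 1.28e-07). The water channel gene Aqp1, counted here with the thin limb, fell from 1175 ± 89.7 to 827 ± 58.4 CPM. In bulk RNA the segment in which Aqp1 fell cannot be told. Cryab, a small heat shock protein of the medulla, was called higher (0.39), which makes 4 lower and 1 higher of 6 thin limb markers (4 and 0 with the covariate). Of 12 thick ascending limb markers 8 were lower and 1 higher (median -0.43). The salt transporter gene Slc12a1 (-0.50) and its chloride channel subunit gene Bsnd (-0.66) were lower without overlap. Umod, which encodes the urinary protein uromodulin, was not called (-0.14, adjusted p = 0.199), and was called lower with the covariate. Cldn16, a tight junction protein for magnesium, went the other way, from 29.6 ± 1.67 to 45.6 ± 3.65 CPM (adjusted p = 1.44e-05).

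Distal convoluted and connecting tubule markers split within calcium handling. Klk1, tissue kallikrein, had 1099, 1181, 1115, 1268 and 1251 CPM in WT and 282, 403, 421, 369 and 212 CPM in KO, a fall by 1.81 without overlap (adjusted p = 2.65e-06). Its counts are uncertain, because the kallikrein genes resemble each other closely. S100g, the calcium buffer calbindin-D9k, fell from 1074 ± 141 to 535 ± 78.0 CPM. Trpv5, the calcium entry channel of the same cells, had 19.8, 21.8, 23.9, 18.4 and 18.7 CPM in WT and 47.2, 58.6, 28.3, 50.5 and 72.0 CPM in KO, a rise by 1.32 without overlap (adjusted p = 0.000103). KO replicate 3 was lowest and replicate 5 highest. Calb1 was not called (-0.01, adjusted p = 0.952). Over the list 6 of 11 were lower and 1 higher, or 2 higher without WT replicate 3.

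The collecting duct differed by cell type. Of 10 principal cell markers tested 4 were called higher and 0 lower. They were the factors Gata3 and Elf5 and the sodium channel subunits Scnn1b (0.57) and Scnn1g (0.68). Gata3 had 27.3, 25.5, 22.9, 25.1 and 25.1 CPM in WT and 64.5, 60.1, 41.2, 65.1 and 82.8 CPM in KO, 2.49-fold higher (SE of the log2 value 0.14, adjusted p = 1.03e-05). No KO library reached down to WT. Aqp2, the vasopressin-regulated water channel, ranged from 295 to 698 CPM within WT and was not called (-0.23, adjusted p = 0.452). Of 13 intercalated cell markers, which serve acid-base transport, 8 were lower and 2 higher. Slc4a1, the anion exchanger that red cells share, and Rhbg, an ammonia transporter, both fell by 1.07, with KO replicate 3 apart in Rhbg at 10.2 CPM against 5.47 to 6.56 CPM in the other KO libraries, and pendrin, Slc26a4, by 0.81. The apical ammonia transporter gene Rhcg rose by 0.44. Foxi1, the factor that defines these cells, was not called (-0.05, adjusted p = 0.711).

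Among nephron progenitor genes, Six2, the factor that maintains these cells, had at most 0.237 CPM in any library and was not tested. Of 11 genes tested 3 were higher and 2 lower, near the 19.1% and 17.2% over all genes, with Osr1 at 0.77, Lhx1 at -0.51 and Sall1 at -0.34. Ret was called at 0.68 with all libraries, and not with the covariate (0.42, adjusted p = 0.19) or in the libraries with Y-linked reads alone (0.39, adjusted p = 0.305).

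Endocrine genes of the kidney were lower in 7 of 11 and higher in 0. Renin, Ren1, had 145, 114, 177, 91.4 and 75.9 CPM in WT and 104, 42.7, 74.6, 49.0 and 47.2 CPM in KO, with overlapping groups. Its log2 fold change was -0.93 (adjusted p = 0.0122), and -0.48 and not called with the covariate (adjusted p = 0.17). The parathyroid hormone receptor gene Pth1r (-0.80), the vitamin D receptor gene Vdr (-0.55), the FGF23 co-receptor gene Kl (-0.44) and Ace (-0.42) were lower without overlap. Of 7 thyroid hormone response genes 2 were higher and 3 lower (1 and 2 with the covariate, 1 and 5 without WT replicate 1), with the hormone receptor gene Thrb at -0.63 and Hr at 1.04. Thrsp, the other higher gene, was not called without any of 7 single libraries.

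**Figure D4:**
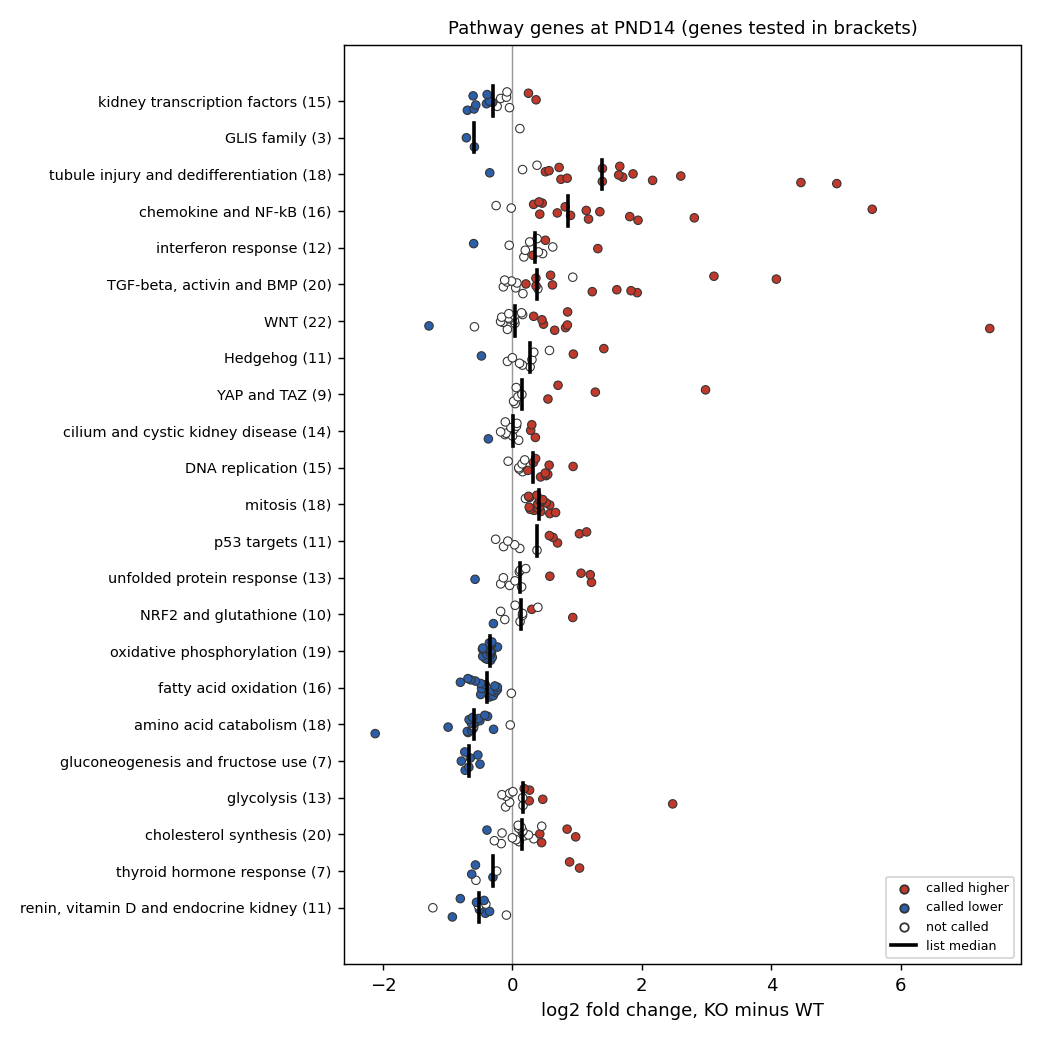
Log2 fold change, KO minus WT, of each tested gene (points) of 23 pathway lists, with the list median as a bar. Injury, chemokine and mitosis genes lie mostly to the right of 0, the 4 metabolic lists of the proximal tubule lie to the left, and the list medians run from -0.67 to 1.39.

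Injury genes of tubule cells had the highest median of the 23 pathway lists. Of 18 genes 15 were called higher, all 15 without overlap between groups, against 19.1% called higher and 13.1% without overlap over all genes, and 1 was lower (median 1.39). Havcr1, kidney injury molecule 1 (chromosome 11, 46740061 to 46779578, plus strand), had 0.309, 0.434, 0.46, 0.242 and 0.722 CPM in WT and 17.3, 22.3, 4.73, 9.72 and 17.0 CPM in KO, 32.2-fold higher (log2 fold change 5.01, SE 0.41, adjusted p = 2.17e-06). The lowest KO library, replicate 3, was still above the highest WT library. Lcn2, which encodes the iron-carrier protein NGAL, had 5.08, 3.61, 6.76, 6.13 and 6.18 CPM in WT and 85.8, 129, 46.4, 110.0 and 237 CPM in KO, 21.96-fold higher (log2 fold change 4.46, or 3.64 with the covariate, adjusted p = 2.17e-06). The spread within KO was wide, and the pair with Y-linked reads were the lowest of the 5. Osteopontin, Spp1, rose from 2104 ± 193 to 5512 ± 1379 CPM and clusterin, Clu, from 159 ± 18.1 to 712 ± 332 CPM. Keratin genes of damaged or simple epithelium rose, with Krt20 at 2.60 and Krt18 at 1.70, and so did Sox9 (1.64) and Cd44 (1.86), genes of tubule repair. Vcam1 was called lower (-0.35, adjusted p = 0.0162), and not with the covariate. Cdkn1a was not called (0.38, adjusted p = 0.0557).

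Over all genes, the largest increases included a WNT ligand and genes of the cornified envelope. Wnt7a, a WNT ligand, had 0.0344, 0.012, 0.0135, 0 and 0 CPM in WT and 1.03, 2.61, 0.549, 2.92 and 4.43 CPM in KO. Against the floor of 3 counts per WT library it was at least 49.7-fold higher (adjusted p = 1.19e-05), and KO replicates 1 and 3 were the lowest KO libraries. Sprr2f and Sprr2g, proteins of the cornified envelope, rose from 0.117 ± 0.0773 to 13.5 ± 9.12 CPM and from 0.426 ± 0.257 to 21.5 ± 11.3 CPM, with uncertainty from their near-identical relatives. The adhesion receptor gene Adgra1 rose from 0.0991 ± 0.0621 to 3.48 ± 0.913 CPM. Mmp7, a matrix-degrading enzyme, rose 19.1-fold. Cnmd, chondromodulin, rose 27.5-fold. With the covariate the log2 fold change was 3.35 in place of 4.25 for Mmp7 and 3.60 in place of 4.78 for Cnmd. For Sprr2f it was 5.96 in place of 6.73. For Wnt7a, whose WT counts did not pass the floor, the fitted values were 5.94 in place of 7.37 and are inexact. Crisp1, a secreted protein known from the epididymis, had 1.13, 4.37, 0.798, 9.79 and 14.2 CPM in KO and at most 0.149 CPM in WT, again lowest in KO replicates 1 and 3 (log2 fold change 6.61, or 4.13 with the covariate). Leptin, Lep, had 4.50, 3.42, 1.11, 3.47 and 5.85 CPM in KO, 0.321 CPM in WT replicate 5 and at most 0.112 CPM in the other WT libraries. It is one of the 8 adipose markers, and the part of adipose tissue in its rise was not tested.

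Of the 1097 called genes that differed at least 2-fold, 837 were higher and 260 lower. Beside Hpd, Slc14a2 and Klk1, the endothelial lipase gene Lipg was 4.28-fold, the carboxylesterase gene Ces1e 3.35-fold and the transporter gene Abca13 3.30-fold lower. Mmp9 had 1.77, 2.43, 3.15, 2.87 and 3.75 CPM in WT and 1.12, 0.698, 1.12, 0.767 and 0.656 CPM in KO, so the gelatinase fell by 1.67 while Mmp7 rose. Cacng4, Klk1b5 and Baiap3 were each at most 3.84 CPM on average and fell by 1.81, 1.70 and 1.65, with KO replicate 5 apart in Klk1b5 at 0.442 CPM.

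Macrophage genes rose almost as a whole. Of 17 markers 16 were called higher and 0 lower (median 1.08), and 14 and 1 with the covariate (median 0.89). Lysozyme, Lyz2, had 39.1, 34.1, 33.6, 33.9 and 31.4 CPM in WT and 68.7, 117, 67.5, 83.7 and 96.0 CPM in KO, 2.51-fold higher without overlap (adjusted p = 8.72e-06). The F4/80 antigen gene Adgre1 (1.04), the complement gene C1qa (1.19), Cd68 (1.27) and the mannose receptor gene Mrc1 (1.17) rose alike, and the integrin genes Itgam and Itgax rose by 2.16 and 1.51. WT replicate 3 was apart in Itgax, at 0.406 CPM, below the 0.615 to 0.674 CPM of its group. Csf1r, the receptor that defines the lineage, was the exception (0.03, adjusted p = 0.858). Summed, the list reached 351 to 575 CPM in KO and 254 to 305 CPM in WT. KO replicate 2 was highest and replicate 1 lowest. Of 10 lymphocyte genes tested 1 was higher (Lck) and 1 lower (Cd8a), neither of them with the covariate and both counts under the shares over all genes, with sums of 8.52 to 10.7 CPM in KO and 8.54 to 10.7 CPM in WT.

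Chemokine and NF-kB genes included the growth factors of that lineage. Of 16 tested 14 were called higher and 0 lower, and 9 and 1 with only the libraries that had Y-linked reads (median 0.86 with all libraries and 0.72 with these). Csf1 had 11.6, 10.8, 11.6, 9.85 and 10.9 CPM in WT and 26.1, 29.5, 22.98, 29.6 and 31.5 CPM in KO, 2.55-fold higher without overlap (adjusted p = 6.62e-07), and Il34, the other ligand of Csf1r, was 2.21-fold higher. Cx3cl1 rose from 64.9 ± 3.16 to 105 ± 22.2 CPM. The monocyte attractant genes Ccl2 and Ccl7 rose by 1.94 and 2.81 from WT means of 0.387 and 0.0755 CPM. The inhibitor gene Nfkbia was not called (-0.25, adjusted p = 0.0625), nor was Il1b (-0.02, adjusted p = 0.984). Interferon response genes gave 3 higher and 1 lower of 12, against 19.1% and 17.2% over all genes, and 1 higher with the covariate and without KO replicate 2, KO replicate 3, WT replicate 2, WT replicate 3 or WT replicate 5. Oas1a was higher at 1.32 and Rsad2 lower at -0.60.

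Matrix and myofibroblast genes rose in 14 of 17, with 0 lower, or 2 lower without KO replicate 1 (median 0.78). Timp1, the inhibitor of matrix proteases, had 1.08, 0.928, 1.1499, 1.06 and 1.14 CPM in WT and 11.8, 12.1, 6.50, 9.69 and 16.7 CPM in KO, 10.6-fold higher (SE of the log2 value 0.22, adjusted p = 5.89e-07). All KO libraries were above all WT libraries. Smooth muscle actin, Acta2, had 67.0, 74.3, 120.0, 61.2 and 63.5 CPM in WT and 179, 217, 243, 189 and 287 CPM in KO, 2.88-fold higher, with WT replicate 3 apart from the other WT libraries. Collagen genes rose by less, with Col1a1 at 1.33 and Col3a1 at 0.68, and fibronectin, Fn1, rose by 1.40. The fibroblast receptor genes Pdgfra (-0.39, adjusted p = 0.0519) and Pdgfrb (-0.21, adjusted p = 0.0952) were not called.

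Several ligands of the TGF-beta family rose. Of 20 genes in that pathway list 11 were called higher and 0 lower. Tgfb2 (1.93), Tgfb3 (1.23) and the activin subunit genes Inhba (1.83) and Inhbb (1.61) rose without overlap, while Tgfb1 was not called (0.16, adjusted p = 0.11). The activin antagonist follistatin, Fst, had 2.25, 2.25, 1.75, 6.72 and 9.13 CPM in WT and 47.8, 109, 19.6, 84.2 and 108 CPM in KO, 16.9-fold higher (log2 fold change 4.08, or 3.03 with the covariate, adjusted p = 6.47e-05). Within WT, replicates 4 and 5 were highest, and within KO replicates 1 and 3 were lowest. Ctgf, a target of the pathway, rose from 185 ± 47.6 to 279 ± 48.6 CPM (adjusted p = 0.0131), but was not called with the covariate (0.56, adjusted p = 0.0663) or in the libraries with Y-linked reads alone (adjusted p = 0.0748). The receptor genes Tgfbr1 and Tgfbr2 rose by 0.37 and 0.62, and Smad3, Smad6 and Smad7 were not called (adjusted p = 0.414, 0.939 and 0.131). The list median was 0.38, and with the covariate 9 were higher and the median was 0.47.

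WNT genes changed in part. Of 22 genes 8 were higher and 1 lower, or 2 lower without KO replicate 1, KO replicate 3 or WT replicate 1. The ligand genes Wnt7a, Wnt7b (0.82) and Wnt4 (0.65) and the receptor genes Fzd1 (0.85) and Fzd2 (0.48) rose, while Wnt11, the ureteric tip ligand, fell by 1.29, with KO replicate 3 at 8.01 CPM against 3.83 to 4.81 CPM in the other KO libraries. The feedback targets Axin2 (-0.06), Nkd1 (0.03), Rnf43 (0.16) and Znrf3 (-0.06) were not called (adjusted p = 0.74, 0.893, 0.132 and 0.567). Myc had 13.2, 13.2, 10.5, 12.8 and 12.1 CPM in WT and 23.6, 18.9, 21.1, 23.4 and 24.7 CPM in KO, 1.81-fold higher without overlap. Hedgehog genes, whose GLI effectors are relatives of the GLIS proteins, gave 2 higher and 1 lower of 11, against 19.1% and 17.2% over all genes, and 3 and 1 with the covariate or without KO replicate 3 or WT replicate 1. Gli3 rose by 1.41 and Hhip by 0.94, Sufu fell by 0.48, and Ptch1 (-0.08) and Gli1 (0.33) were not called (adjusted p = 0.419 and 0.141). Of 9 YAP and TAZ genes 4 were higher. Ankrd1, a target, had 4.05, 3.52, 2.23, 2.76 and 2.37 CPM in WT and 15.1, 26.3, 13.7, 29.9 and 33.3 CPM in KO, 7.91-fold higher (log2 fold change 2.98, or 2.32 with the covariate). Cyr61, another target, ran from 20.4 CPM in WT replicate 4 to 73.1 CPM in WT replicate 1 and from 82.0 to 127 CPM in KO. Yap1 and Wwtr1 were not called (0.04 and 0.02, adjusted p = 0.583 and 0.836).

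Genes of the cilium and of inherited cystic disease moved little. Of 14, 3 were called higher and 1 lower, against 19.1% and 17.2% over all genes. Pkhd1, the gene of recessive polycystic disease, rose by 0.36, Bicc1 by 0.28 and Tmem67 by 0.30, and Pkd2 fell by 0.37. Of these 4, Pkhd1 remained called with the covariate, and none in the libraries with Y-linked reads alone. Pkd1 (0.10) and the transport gene Ift88 (0.03) were not called (adjusted p = 0.341 and 0.786).

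Cell division genes rose by small amounts. Of 18 mitosis genes 17 were called higher and 0 lower (median 0.41), 13 with the covariate (median 0.37) and 10 in the libraries with Y-linked reads alone. Top2a, which untangles replicated DNA, had 56.1, 57.3, 58.6, 47.8 and 55.0 CPM in WT and 98.5, 81.6, 76.8, 91.7 and 87.8 CPM in KO, 1.59-fold higher without overlap (adjusted p = 2.27e-05). Mki67 rose from 72.6 ± 8.23 to 108 ± 13.2 CPM and Cdk1 by 0.40. DNA replication genes were called higher in 9 of 15, led by the origin licensing gene Cdc6 (0.94), and Pcna was not called (0.11, adjusted p = 0.361). That count was 5 with the covariate and 5 without KO replicate 3, KO replicate 5, WT replicate 1, WT replicate 2, WT replicate 4 or WT replicate 5. The list median was 0.33 with all libraries, 0.38 with the covariate and 0.299 to 0.348 without 1 of these libraries. In Cdc6, Cdc45 and Pcna, WT replicate 3 was the highest WT library.

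Counts for stress pathways stand against the 19.1% called higher and 17.2% called lower over all genes. Of 11 p53 target genes 5 were higher and 0 lower (5 and 1 with the covariate), among them Eda2r (1.146), Gdf15 (1.04) and Bbc3 (0.70), and Mdm2 was not called (0.11, adjusted p = 0.425). Gdf15 had 12.2 CPM in WT replicate 1, above the lowest KO library, while WT replicates 2 to 5 ran from 5.95 to 7.69 CPM. Of 13 unfolded protein response genes 4 were higher and 1 lower, and 2 and 1 in the libraries with Y-linked reads alone. Those higher, Asns (1.20), Atf3 (1.22), Chac1 (1.06) and Trib3 (0.58), are known as ATF4-type targets, but Atf4 itself and Ddit3, also in the list, were not called. The chaperone gene Hspa5 was not called either (0.14, adjusted p = 0.378), and Herpud1 fell by 0.58. Of 10 NRF2 and glutathione genes 2 were higher and 1 lower, near the shares over all genes, with the haem-degrading enzyme gene Hmox1 at 0.93 and Nqo1 at -0.29. Without KO replicate 3, 4 were higher and 2 lower, and with the covariate 2 and 0. Cholesterol synthesis gave 5 higher and 1 lower of 20, the first near its share and the second well under it. Sqle, the squalene epoxidase gene, was at 0.98. The list gave 3 higher and 3 lower without KO replicate 2, 9 and 1 without WT replicate 3, and 2 and 2 with the covariate. Without KO replicate 3, 4 or 5 or WT replicate 1, 2, 4 or 5 it gave 3 higher and 1 or 2 lower.

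The response at PND14 was then set against that at PND28, with 4 KO and 4 WT libraries, in a joint fit of all 23 libraries. The genotype effect differed between those ages in 8130 of 19650 genes. Among the 6428 genes called at PND14, 458 (7.13%) had an effect that differed between the ages (adjusted p under 0.05) and was the larger at PND14. Of these, 240 were higher and 218 lower in KO. Genes with the larger effect at PND28 were not counted. Among the genes with the smallest p for this difference were Wdfy4, a gene of antigen presentation by dendritic cells, the condensin subunit gene Ncapg and the neurotrophin gene Bdnf, all higher in KO at PND14. The lower ones were the aldo-keto reductase gene Akr1c13, Slc14a2, the retinol dehydrogenase gene Rdh10 and the lipoprotein gene Apoe.

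Slc14a2 showed the pattern at its plainest. Its mean was 191 ± 20.4 CPM in WT and 52.5 ± 7.77 CPM in KO at PND14, and 46.2 ± 15.1 and 51.2 ± 4.96 CPM at PND28 (SD, n = 5 and 4 a group, joint scaling). The WT mean at PND28 was near the KO mean at PND14. The effect at PND14 was lower than that at PND28 by a log2 difference of -2.01 (SE 0.28, edgeR adjusted p = 4.83e-06). Ncapg was 8.71 ± 0.389 and 13.7 ± 1.03 CPM in WT and KO at PND14 and 4.97 ± 0.752 and 3.21 ± 1.10 CPM at PND28, a difference of 1.29 (adjusted p = 2.93e-05). Apoe was 1281 ± 288 and 798 ± 58.9 CPM at PND14 and 588 ± 126 and 879 ± 134 CPM at PND28, a difference of -1.26 (adjusted p = 2.56e-05). Bdnf was 1.34 ± 0.201 and 2.503 ± 0.462 CPM at PND14 and 6.77 ± 0.986 and 3.72 ± 0.95 CPM at PND28, a difference of 1.77 (adjusted p = 3.33e-05). In all 7 named genes the KO mean lay on the other side of the WT mean at PND28. The groups did not overlap there in Wdfy4, Bdnf and Rdh10, they overlapped in Ncapg, Akr1c13 and Apoe, and in Slc14a2 the KO values (44.2 to 55.5 CPM) lay inside the WT range (34.2 to 68.3 CPM). The counts of each age come from a table of their own, and Y-linked reads were present in 3 of 4 KO and 2 of 4 WT libraries at PND28, so the split by sex also differs between the ages.

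**Figure D5:**
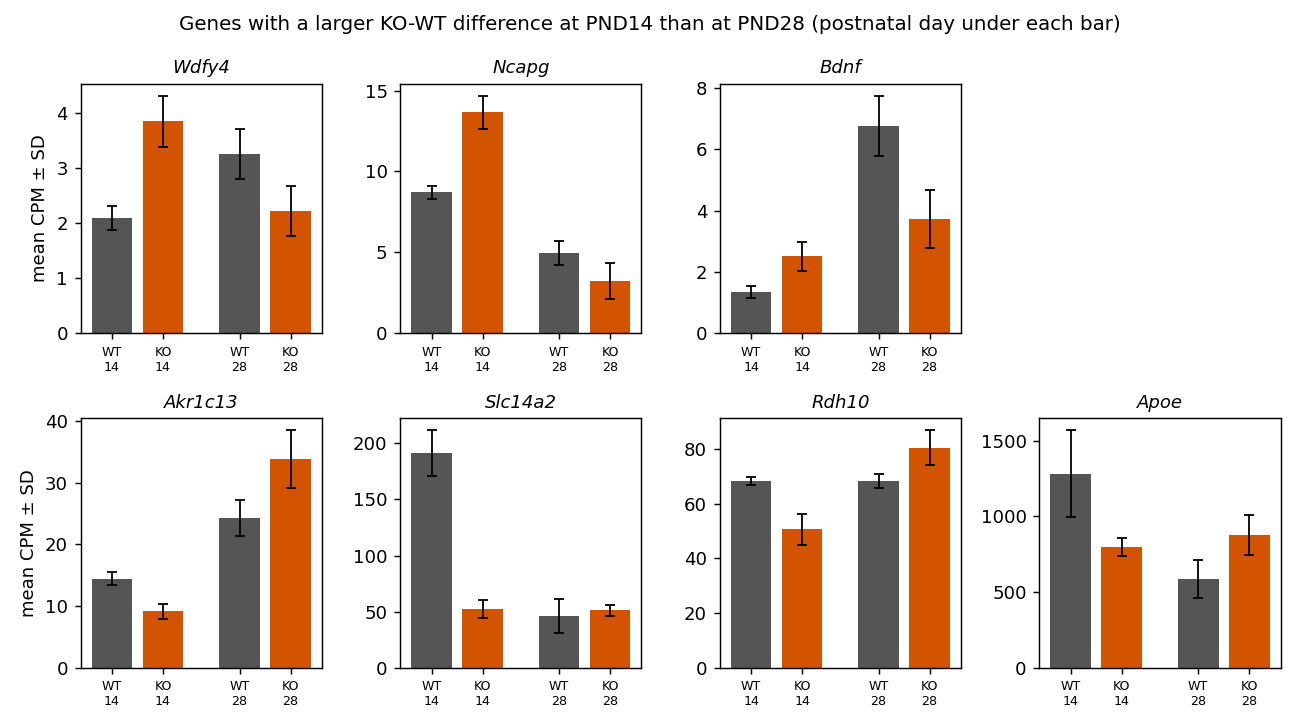
Mean CPM ± SD (bars from 0, joint scaling) of 7 genes in WT and KO at PND14 (n = 5 each) and PND28 (n = 4 each). The KO bar is above the WT bar at PND14 and below it at PND28 in the upper row, and the reverse in the lower row, within the WT spread at PND28 for Slc14a2, which goes from 191.3 to 46.2 CPM in WT.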

How the data were processed

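The labels' protocols name a TruSeq kit for the libraries. The deposited tables, 1 for each age, hold raw read counts per gene, which the authors made with STAR 2.5 and featureCounts (Subread 1.5.0-p1) on mm10, per the submitters' processing notes. Strand setting and the treatment of reads with several matches are not given in the sources used here. The 10 PND14 libraries held 58910644 to 84684054 counts each. Without molecular identifiers, reads are not independent molecules, so floors cover counting error only.

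Counts were fitted as deposited with edgeR 4.0.16 (filterByExpr, TMM scaling, quasi-likelihood F test, R 4.3.3), with Benjamini-Hochberg adjustment over all 17702 genes tested and a threshold of 0.05. CPM values use the TMM-scaled totals. The SE is the log2 fold change divided by the root of F. The fit was tested on simulated data for KO against WT at PND14 (17594 genes tested): with 97 genes changed 2-fold, 82 were recovered, and with 100 changed 1.5-fold, 69. Ages were compared in a joint fit of 23 libraries. Replicate pairs differed by more than sampling noise (chi-square per degree of freedom 12.2 to 93.7), so none was counted as a duplicate.

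Alternatives were DESeq2 1.42.0, median-ratio size factors, no low-count filter, a mean of at least 1 CPM, an adjusted p under 0.01, the Y-linked covariate, only libraries with Y-linked reads, a replicate block and leaving out each library. Leaving out libraries of the other ages in the joint fit was added after seeing the data. Members and lists were chosen with earlier results of these data known. Named genes were the GLIS family, the adrenal markers, the 10 largest called increases and decreases of at least 1 mean CPM without overlap (predicted models passed over), up to 2 largest per list and direction, each list's gene of highest mean CPM, and the 4 genes per direction with the smallest p for an effect larger at PND14. Some genes of the lists and of this rule are not reported here. Other list members were named after their values were seen. Promoter sequences are from RefSeq (GRCm38.p6).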

Additional observations from a re-analysis of the deposited data

Results flagged for a closer look

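In 24 of 314 groups of 5 libraries, 1 library stood far from the other 4. Chance alone gives about 1 in 20 groups, and no excess over chance is read from this count. Of the 24, 11 were KO replicate 2, 4 WT replicate 3, 3 KO replicate 3 and 3 WT replicate 1. In KO replicate 2, 10 of the 11 were adrenal genes or the adrenal cortex sum, which were included with the adrenal RNA of that library known.

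KO replicate 2 stood apart in adrenal genes. Its values were 4.93 CPM for Cyp11a1, 4.45 for Cyp11b1, 0.601 for Cyp11b2, 4.33 for Cyp21a1, 11.8 for Hsd3b1, 19.4 for Star, 0.682 for Nr5a1, 0.146 for Pnmt and 1.27 for Chgb, and its adrenal cortex sum was 118.4 CPM. The same library was apart in the cholesterol synthesis gene Hmgcs1, at 367 CPM. Nr5a1 in WT replicate 1, at 0.0859 CPM, was also apart from the other WT libraries.

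WT replicate 3 was apart in Acta2 (120.0 CPM), Itgax (0.406 CPM) and Pcna (88.6 CPM), and in the exocrine pancreas sum at 6.76 CPM. KO replicate 3 was apart in Rhbg (10.2 CPM), Wnt11 (8.01 CPM) and the pancreas sum at 0.536 CPM. Single values apart were Slc6a19 in KO replicate 1 (268 CPM), Klk1b5 in KO replicate 5 (0.442 CPM), Gdf15 and Klf9 in WT replicate 1 (12.2 and 137 CPM) and Lep in WT replicate 5 (0.321 CPM).

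The genotype effect differed between PND14 and PND28, by the interaction term of the joint edgeR fit, in 7 named genes that were chosen for this difference. The log2 difference, PND14 minus PND28, was 1.43 for Wdfy4, 1.29 for Ncapg, 1.77 for Bdnf, -1.14 for Akr1c13, -2.01 for Slc14a2, -0.67 for Rdh10 and -1.26 for Apoe. Each kept its direction and its call in all 31 alternative fits.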

How the results depend on the processing

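Of 148 gene results, 131 passed the threshold, and 119 kept their side of the threshold in each setting run. No called result reversed, while results not called could change sign, such as Star (0.80, and -0.16 at the lowest). In at least 1 setting 25 lost their call (3 without KO replicate 2, 17 with the Y-linked covariate and 24 in the libraries with Y-linked reads alone). The 17 were Cyp11a1, Ptpro, Slc6a19, Cryab, Ret, Ehd3, Lck, Cd8a, Vcam1, Bst2, Ctgf, Tmem67, Pkd2, Bicc1, Nqo1, Thrsp and Ren1, and the 24 also held Tfcp2l1, Emx2, Cyr61, Pkhd1, Aadat, Pfkp and Bdnf. The 3 without KO replicate 2 were Cyp11a1, Bst2 (log2 fold change 0.42, edgeR adjusted p = 0.117) and Thrsp (0.86, adjusted p = 0.0777). The 6428 called genes became 3838 in the libraries with Y-linked reads alone, which drops 3 KO libraries, and 4031 at an adjusted p under 0.01. They were 5371 to 6720 when 1 library was left out, lowest without KO replicate 5 and highest without KO replicate 3, and 6875 with DESeq2. The 1097 genes changed at least 2-fold became 650 when a mean of at least 1 CPM was asked, which removes low genes, and 938 to 1268 when 1 library was left out. The 8130 genes whose effect differed between PND14 and PND28 became 7257 to 8312 when 1 library was left out. With a replicate block, 6443 genes were called, 6010 of them shared with the 6428 and in the same direction, 1110 changed at least 2-fold, and 7830 differed between the ages. Deviations of same-numbered KO and WT libraries correlated at -0.176 to 0.331, over 0.1 in 3 of 5 pairs, and 2 KO libraries correlated best with their own number, so the numbers were not taken as pairs. Depth limits Six2, Il6 in WT and the adrenal genes Cyp11a1, Cyp11b1, Cyp11b2 and Hsd3b1, which had few counts in most libraries.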

Other observations

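Some members of the lists counted above, not described there, had patterns worth a look, and they were singled out after their values were seen. Il6, the inflammatory cytokine, had 1.92, 0.373, 0.249, 0.31 and 0.402 CPM in KO and at most 4 counts in any WT library. Fgb, the fibrinogen beta chain, which liver makes in quantity, had 5.08, 5.37, 4.95, 3.73 and 5.13 CPM in WT and 13.0, 10.2, 8.44, 7.86 and 14.8 CPM in KO, without overlap, while albumin, Alb, was not called (log2 fold change -0.47, edgeR adjusted p = 0.421). Ucp1, the uncoupling protein of brown fat, had 0.0515, 5.63, 18.8, 9.02 and 5.94 CPM in WT and 20.6, 30.8, 41.7, 86.3 and 20.5 CPM in KO. Cdkn1c, a cell cycle inhibitor of podocytes, had 179, 169, 188, 169 and 142 CPM in WT and 94.7, 58.2, 267, 80.5 and 49.97 CPM in KO, where replicate 3 alone was above all WT libraries and the other 4 were below them. Defb2, a beta-defensin, had 0.687, 0.638, 0.758, 0.447 and 0.289 CPM in WT and 0.0738, 0.114, 0.2, 0.0816 and 0.0268 CPM in KO, all below WT.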
